A study of Homo sapiens with 6 samples.

Results

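Glycolysis and hypoxia genes were examined as a list of 38 genes, made up of glycolytic enzymes, glucose and lactate transporters, and targets of the hypoxia-inducible factor (HIF), each found by its symbol in a table of 62443 genes. The list holds 17 enzymes of glycolysis and lactate production, 4 transporters, 3 regulatory kinases, 3 genes for HIF1A and its hydroxylases, and 11 other HIF targets. Of these, 23 had a mean of at least 1 FPKM (fragments scaled to the length of the transcript and to the mapped total) over the 6 libraries and were tested, while 15 lay below this minimum and are described from the same model without a filter. CA9 was listed at 0 in every library.

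RNA sequencing was performed on HGC-27, a line of human gastric carcinoma cells, in 3 control libraries (Con) and 3 libraries from cells given GLUP, to ask which transcripts respond to this peptide. GLUP is a synthetic peptide modelled on the cofactor VGLL4, made to join molecules of TEAD4, a DNA-binding factor of the Hippo pathway, into repressive condensates. Con is untreated according to the labels and received the storage buffer of the peptide according to the methods, and the length of exposure differs between the results and the methods of the study. All 6 libraries come from the same line in serum-containing medium, with no altered allele named, so the comparison speaks for 1 cell line. The methods mention biological replicates without tying them to libraries, so the p-values below measure the spread between libraries, part of which may be technical. Of 6 markers of gastric mucous and chief cells, 5 were listed at 0 throughout. Of 5 epithelial markers, CDH1 and EPCAM were at most 0.124 FPKM, while the keratins KRT8, KRT18 and KRT19 lay between 0.764 and 2.51 FPKM. The mesenchymal markers were uneven, with VIM at 222.2 to 387.2 FPKM, ZEB1 at 2.88 to 19.2 FPKM, FN1 at 0.644 to 3.25 FPKM and CDH2 at most 0.0508 FPKM. So were those of fibroblasts, with LUM at 47.2 to 76.7 FPKM, DCN at 16.0 to 41.3 FPKM, COL1A1 at 2.86 to 6.90 FPKM and COL1A2 at most 0.443 FPKM. The 5 epithelial markers summed to between 2.97 and 3.70 FPKM in Con and to between 5.18 and 6.06 FPKM in GLUP. All 3 keratins were higher in each GLUP library than in any Con library. CDH1 went the other way, at 0.0687, 0.0799 and 0.0148 FPKM in Con and at 0 in every GLUP library. EPCAM overlapped, at 0.124, 0.0766 and 0 FPKM in Con and at 0.0451, 0 and 0 FPKM in GLUP. The part of these differences in the results below was not tested.

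Glycolysis breaks glucose down to pyruvate, and lactate dehydrogenase turns pyruvate into lactate when it is not passed to mitochondria. Many cancer cells run this route at a high rate even with oxygen at hand, and the study itself began from factors that condense when glucose is withdrawn. HIF1A protein is marked for destruction by the EGLN hydroxylases while oxygen is present. When oxygen is low the protein persists, binds DNA together with ARNT at sites with the core ACGTG or GCGTG, and induces glucose transporters, most glycolytic enzymes and its own hydroxylases. HIF1A is governed largely at the protein level, so that its transcript by itself does not report the activity of the factor.

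The libraries differed in ways that bear on all these genes. Con replicate 2 had a mean correlation with the other libraries of 0.898 over the tested genes, and the others had 0.954 to 0.964. The deviation of a library from the gene mean was related to GC content, with Spearman correlations across genes of -0.60 in Con replicate 2 and -0.34 in Con replicate 1, and of 0.34 to 0.54 in the remaining 4 libraries. Summed FPKM ran from 909735 to 965147 per library, and read counts were not given, so the depth behind each value is unknown.

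No gene of the list passed an adjusted p of 0.05 in limma (0 of 23 tested, and 0.0% of all 7406 tested genes). Taking an unadjusted p under 0.05, 0 genes were higher in GLUP, beside 4.46% of all tested genes, and 2 genes lower, HIF1A and EGLN3, beside 17.2%. The 3 GLUP values lay above the 3 Con values for 3 genes (ALDOC, ENO1 and TPI1), beside 7.55% of all genes, and below them for 3 genes (HIF1A, EGLN3 and BNIP3L), beside 22.7%. EGLN3 met the minimum only through its Con values, so its place in these counts is a description and not support. For 12 of the 23 genes the mean was higher in GLUP, beside 34.5% of all genes. Their median log2 fold change was 0.03, and that of all tested genes was -0.23. With scaling by the trimmed mean of log ratios the median of all genes was -0.01 and 49.3% of them were higher, and 18 of the 23 genes were then higher, with a median of 0.29. Values are listed in the order of the replicate numbers. A fold change below is a difference of group means of log2(FPKM + 1), a scale on which low genes differ by less than their FPKM do.

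The plot of the levels orders the tested genes by abundance. GAPDH, LDHB, ENO1 and TPI1 stood at the top of the list in mean FPKM, a measure per unit length that allows such an order. The 17 enzymes held 1.25%, 0.449% and 1.60% of the summed FPKM in Con, against 1.97%, 1.58% and 1.53% in GLUP. The share in Con replicate 2 was the lowest of the 6, and the remaining Con values lay on either side of the lowest GLUP value.

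**Figure D1:**
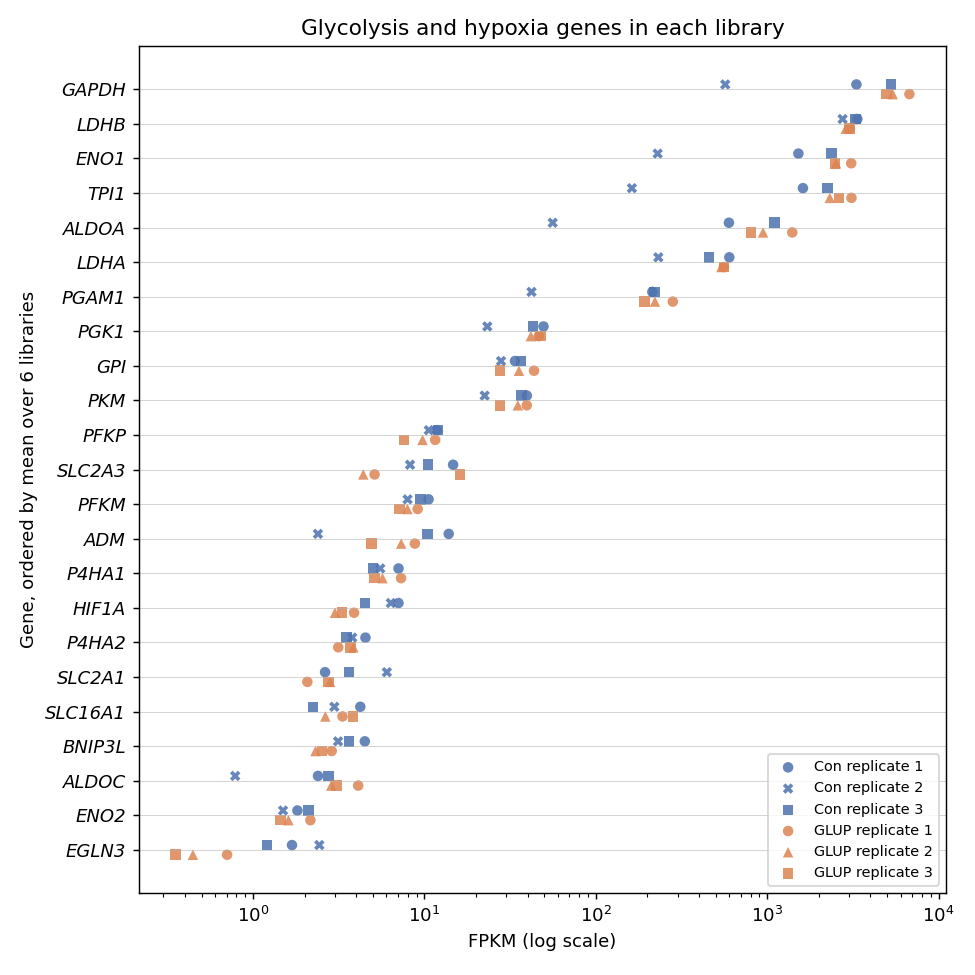
FPKM on a log axis for the 23 tested genes, ordered by mean over 6 libraries, with Con libraries in blue and GLUP libraries in orange. Con replicate 2, drawn as a cross, lies far to the left of the other 5 libraries for GAPDH, ENO1, TPI1, ALDOA and PGAM1, while LDHB lies between 2755 and 3360 FPKM in all 6.

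GAPDH, which oxidises glyceraldehyde phosphate in the middle of the pathway, was the most abundant enzyme (ENSG00000111640, chromosome 12, 6643678 to 6647540, plus strand, GRCh37). It was at 3318, 569.2 and 5282 FPKM in Con and at 6762, 5405 and 4983 FPKM in GLUP. Con replicate 3 lay within the range of GLUP, and Con replicate 2 stood far below all the others. The mean of Con was 3056 ± 2367 FPKM (SD, n = 3). That of GLUP was 5717 ± 929.2 FPKM (SD, n = 3). GAPDH had a log2 fold change of 1.40 (SE 0.66, adjusted p = 0.245 in limma), and without Con replicate 2 the change was 0.44 (SE 0.24). Its rank among all genes was 44, 221 and 31 in Con and 27, 34 and 37 in GLUP. An antisense noncoding RNA overlaps GAPDH, and 65 of its pseudogenes summed to at most 0.704% of its own FPKM in any library.

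TPI1, which interconverts the triose phosphates, lies near GAPDH (ENSG00000111669, chromosome 12, 6976283 to 6980112, plus strand). TPI1 was at 1617, 162.4 and 2244 FPKM in Con and at 3104, 2320 and 2619 FPKM in GLUP. The groups did not overlap, although Con replicate 3 came within a small distance of GLUP replicate 2. The log2 fold change was 1.66 (SE 0.79, adjusted p = 0.247 in limma), the highest of the list, and it was 0.48 (SE 0.22) without Con replicate 2, still with no overlap.

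ENO1, the enolase of most tissues, was also lowest in Con replicate 2 (ENSG00000074800, chromosome 1, 8921059 to 8939249, minus strand). It was at 1521, 229.6 and 2375 FPKM in Con and at 3092, 2521 and 2493 FPKM in GLUP, with no overlap. The log2 fold change was 1.51 (SE 0.69, adjusted p = 0.236 in limma) and 0.50 (SE 0.24) without Con replicate 2. ENO1-AS1 overlaps it on the other strand, at a mean of 1.07 FPKM.

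ALDOA, the main aldolase of muscle and of many tumours, varied most among the abundant enzymes (ENSG00000149925, chromosome 16, 30075485 to 30081778, plus strand). It was at 598.1, 56.0 and 1101 FPKM in Con and at 1401, 946.5 and 805.0 FPKM in GLUP, and Con replicate 3 lay inside the range of GLUP. ALDOA had a log2 fold change of 1.61 (SE 0.88, adjusted p = 0.284 in limma), which was 0.33 (SE 0.31) without Con replicate 2. A protein-coding gene without a symbol overlaps ALDOA on the same strand at a mean of 34.7 FPKM, so that some of its reads may have been assigned to either gene.

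PGAM1, the phosphoglycerate mutase, was at 213.7, 42.1 and 220.7 FPKM in Con and at 281.5, 221.3 and 193.0 FPKM in GLUP (ENSG00000171314, chromosome 10, 99185948 to 99193201, plus strand). Its GLUP range took in Con replicates 1 and 3. The log2 fold change of PGAM1 was 0.86 (SE 0.57) and only 0.08 (SE 0.23) without Con replicate 2. ALDOC, the aldolase of brain, was much lower, at 2.39, 0.786 and 2.76 FPKM in Con and 4.10, 2.86 and 3.07 FPKM in GLUP, with no overlap (ENSG00000109107, chromosome 17, 26900133 to 26903966, minus strand). It had a log2 fold change of 0.61 (SE 0.32, adjusted p = 0.275 in limma) and of 0.27 (SE 0.25) without Con replicate 2.

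Promoter windows, from 250 bases before to 50 bases after an annotated start, were read for 33 of the 38 genes from RefSeq on GRCh38.p14. SLC2A3, SLC16A1, VEGFA, NDRG1 and BNIP3L were without a window. ACGTG or GCGTG on either strand stood in 42 of 63 windows of these genes (66.7%) and in 48.4% of 35116 windows of all genes. Among genes with a single window the letters stood in 17 of 20 (85%), beside 47.3% of all, and ACGTG in 10 of 20 (50%), beside 21.3%. A match is a description of letters and not a bound site, and base composition, which differs between windows, was not matched. The list was made up in part of known HIF targets, so an excess of these letters follows from its choice and does not bear on GLUP. The windows of GAPDH, ENO1 and ALDOC are shown with these letters on either strand in capitals. The changes of these enzymes were all smaller without Con replicate 2, and ENO1 and ALDOC had no overlap between the groups. GAPDH is at chr12:6535014-6535313 on the plus strand, ENO1 at chr1:8878637-8878936 on the minus strand and ALDOC at chr17:28576846-28577145 on the minus strand.
GAPDH: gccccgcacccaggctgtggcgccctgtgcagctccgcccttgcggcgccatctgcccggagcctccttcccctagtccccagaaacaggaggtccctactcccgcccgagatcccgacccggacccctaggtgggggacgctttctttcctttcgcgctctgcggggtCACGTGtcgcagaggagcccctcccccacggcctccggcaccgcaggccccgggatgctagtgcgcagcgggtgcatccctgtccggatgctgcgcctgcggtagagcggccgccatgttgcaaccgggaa
ENO1: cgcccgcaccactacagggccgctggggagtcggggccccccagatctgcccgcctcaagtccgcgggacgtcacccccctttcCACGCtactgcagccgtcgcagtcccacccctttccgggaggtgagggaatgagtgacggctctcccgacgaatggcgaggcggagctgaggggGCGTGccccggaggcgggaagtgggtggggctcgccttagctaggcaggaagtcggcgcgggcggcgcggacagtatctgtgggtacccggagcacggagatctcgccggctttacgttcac
ALDOC: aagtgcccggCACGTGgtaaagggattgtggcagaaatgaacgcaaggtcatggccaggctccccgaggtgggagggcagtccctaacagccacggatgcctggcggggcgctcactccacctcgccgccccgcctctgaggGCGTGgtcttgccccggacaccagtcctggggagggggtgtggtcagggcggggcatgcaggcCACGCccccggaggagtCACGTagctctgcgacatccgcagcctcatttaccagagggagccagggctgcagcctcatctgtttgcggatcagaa
GAPDH carried 1 such stretch, in which both orientations overlap, ENO1 carried 2 and ALDOC carried 4. The window of PGAM1, at chr10:97427568-97427867, held none. Gene spans are given on GRCh37 and windows on GRCh38.p14, and window starts were not placed within the spans. A window may thus stand at an inner start of its gene, and letters near another start would be missed.

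LDHA and LDHB encode the subunits of lactate dehydrogenase, with LDHA favouring lactate production. LDHA was at 601.5, 231.6 and 458.8 FPKM in Con and at 558.9, 540.5 and 558.7 FPKM in GLUP (ENSG00000134333, chromosome 11, 18416107 to 18429972, plus strand). The GLUP libraries varied by 1.91% of their mean, while those of Con varied by 43.3%. LDHA had a log2 fold change of 0.47 (SE 0.36, adjusted p = 0.419 in limma), which was 0.07 without Con replicate 2. LDHB was at 3360, 2755 and 3282 FPKM in Con and at 3043, 2876 and 3017 FPKM in GLUP. Its rank among all genes stayed between 43 and 58, and its log2 fold change was -0.07 (SE 0.21). LDHB was thus an abundant glycolytic gene whose value in Con replicate 2 was close to the others.

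PGK1, the phosphoglycerate kinase on the X chromosome, was at 49.5, 23.3 and 42.9 FPKM in Con and at 46.5, 41.8 and 47.6 FPKM in GLUP. Its log2 fold change of 0.29 (SE 0.34) was -0.03 without Con replicate 2. PKM, the pyruvate kinase, was at 39.6, 22.5 and 36.9 FPKM in Con and at 39.5, 35.1 and 27.7 FPKM in GLUP. The groups overlapped for both kinases, and the change of PKM was 0.07 (SE 0.33) over 6 libraries and -0.17 without Con replicate 2. GPI, the isomerase that follows hexokinase, was at 33.7, 28.0 and 36.7 FPKM in Con and at 43.6, 35.6 and 27.5 FPKM in GLUP, a log2 fold change of 0.10 (SE 0.30) and of -0.01 without Con replicate 2. None of these enzymes differed beyond the spread of the libraries. PGAM4 overlaps PGK1 on the other strand at a mean of 4.63 FPKM.

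The phosphofructokinases commit sugar phosphate to glycolysis. PFKM, the muscle form, was at 10.6, 7.97 and 9.50 FPKM in Con and at 9.13, 7.95 and 7.17 FPKM in GLUP. PFKP, the platelet form, was at 11.8, 10.6 and 12.0 FPKM in Con and at 11.6, 9.75 and 7.61 FPKM in GLUP. Their changes were -0.19 (SE 0.27) and -0.24 (SE 0.28), and both reversed to 0.08 and 0.03 with the trimmed mean of log ratios. PFKL, the liver form, lay under the minimum at 0.577, 0.0607 and 0.629 FPKM in Con and at 2.68, 1.21 and 0.450 FPKM in GLUP, with the groups overlapping through GLUP replicate 3. ENO2, the neuronal enolase, was at 1.81, 1.50 and 2.10 FPKM in Con and at 2.16, 1.61 and 1.44 FPKM in GLUP, a change of -0.04 (SE 0.23) that turned to 0.15 with the trimmed mean. The hexokinases HK1 and HK2, which trap glucose in the cell, had means of 0.579 and 0.339 FPKM, and their groups overlapped.

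The transporters gave no common direction. SLC2A1, the basal glucose transporter GLUT1, was at 2.63, 6.03 and 3.64 FPKM in Con and at 2.07, 2.81 and 2.76 FPKM in GLUP. Con replicate 2 was the highest library for SLC2A1, the opposite of the enzymes, and the change was -0.48 (SE 0.30), or -0.22 without that library. SLC2A3, the high-affinity glucose transporter GLUT3, was at 14.7, 8.24 and 10.5 FPKM in Con and at 5.12, 4.39 and 16.1 FPKM in GLUP. GLUP replicate 3 was the highest of the 6 libraries and the remaining GLUP libraries were the lowest, so the change of -0.52 (SE 0.45) did not exceed the spread. SLC16A1, a lactate transporter, was at 4.22, 2.98 and 2.24 FPKM in Con and at 3.33, 2.64 and 3.83 FPKM in GLUP, a change of 0.06 (SE 0.28). SLC16A3, the transporter that exports lactate from glycolytic cells, was at most 0.148 FPKM.

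HIF1A and the hydroxylases EGLN1 and EGLN3 were lower in each GLUP library than in any Con library. HIF1A, the oxygen-regulated subunit (ENSG00000100644, chromosome 14, 62162231 to 62214977, plus strand), was at 7.05, 6.36 and 4.51 FPKM in Con and at 3.88, 3.01 and 3.30 FPKM in GLUP. The nearest libraries were Con replicate 3 and GLUP replicate 1. Its log2 fold change was -0.65 (SE 0.27, adjusted p = 0.211 in limma), or -0.42 relative to the median of all genes. It was -0.60 without Con replicate 2. Leaving out Con replicate 3 gave -0.81 with an adjusted p of 0.04995 in limma, just under the threshold, when 18.5% of all genes passed. The Con libraries left in that fit had negative GC correlations (-0.34 and -0.60), and the GLUP libraries had positive ones (0.34 to 0.54). The part of this difference in the calls of that fit was not tested. HIF1A has a GC content of 39.4%, and once the trend in GC content and length was removed its change was -0.12 (SE 0.19) and its groups overlapped.

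EGLN3, a hydroxylase that HIF itself induces (ENSG00000129521, chromosome 14, 34393433 to 34931980, minus strand), was at 1.69, 2.44 and 1.21 FPKM in Con and at 0.705, 0.446 and 0.353 FPKM in GLUP. The groups did not overlap, and EGLN3 passed the minimum only through its Con values, all 3 GLUP values being under 1 FPKM. The log2 fold change was -0.87 (SE 0.23, adjusted p = 0.194 in limma), the lowest of the list, or -0.64 relative to the median of all genes. Without Con replicate 2 it was -0.70. Leaving out Con replicate 3 gave -1.02 (adjusted p = 0.0314 in limma), again with Con and GLUP of opposite sign in their GC correlations. Removal of the trend gave -0.54 (SE 0.19). The exact permutation test over 3 against 3 libraries, two-sided, gave p = 0.1 for HIF1A and for EGLN3, the smallest value this design allows. That value only restates that the groups do not overlap. Because EGLN3 entered the tested genes through Con alone, its p-values are a description and not support for a lower level in GLUP. SPTSSA, at a mean of 6.13 FPKM, overlaps the annotated span of EGLN3 on the same strand, so the EGLN3 values are uncertain.

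EGLN1, the main hydroxylase of HIF1A in normal oxygen (ENSG00000135766, chromosome 1, 231499497 to 231558033, minus strand), lay under the minimum. EGLN1 was at 0.790, 0.620 and 0.614 FPKM in Con and at 0.367, 0.299 and 0.256 FPKM in GLUP, without overlap. Its log2 fold change in the fit without a filter was -0.36 (SE 0.12, adjusted p = 0.589 in limma over 31444 genes) and -0.38 without Con replicate 2. A pseudogene of EGLN1 reached 27.0% of the EGLN1 value in a library. The promoter windows of both hydroxylases are given because their transcripts were lower in the same libraries. EGLN1 is at chr1:231422238-231422537 and EGLN3 at chr14:33951025-33951324, both on the minus strand of GRCh38.p14, with the same letters in capitals.
EGLN1: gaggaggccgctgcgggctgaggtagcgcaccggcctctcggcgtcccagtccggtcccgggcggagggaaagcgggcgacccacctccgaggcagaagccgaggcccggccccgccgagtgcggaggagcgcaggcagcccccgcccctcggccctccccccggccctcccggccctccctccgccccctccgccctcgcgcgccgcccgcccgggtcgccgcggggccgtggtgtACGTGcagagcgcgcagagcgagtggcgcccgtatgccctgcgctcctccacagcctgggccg
EGLN3: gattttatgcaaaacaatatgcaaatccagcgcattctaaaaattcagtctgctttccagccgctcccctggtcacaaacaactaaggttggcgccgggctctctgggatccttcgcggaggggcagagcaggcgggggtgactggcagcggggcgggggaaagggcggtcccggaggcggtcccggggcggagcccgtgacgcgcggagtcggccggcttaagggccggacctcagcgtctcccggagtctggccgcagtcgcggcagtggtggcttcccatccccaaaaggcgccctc
The window of EGLN1 held 1 stretch, shortly before the start, and the window of EGLN3 held none. The latter says only that these letters are not in this stretch.

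Of the other HIF targets, 4 were tested. BNIP3L, a mitophagy receptor, was at 4.49, 3.13 and 3.62 FPKM in Con and at 2.88, 2.31 and 2.53 FPKM in GLUP. Its groups did not overlap, and the log2 fold change of -0.40 (SE 0.25, adjusted p = 0.329 in limma) was -0.50 without Con replicate 2. BNIP3L is among the genes of lowest GC content, the first of 10 equal bins, where 94.1% of genes had the lower mean in GLUP. Its change reversed to 0.19 once the trend was removed. ADM, the vasodilator adrenomedullin, was at 13.8, 2.39 and 10.4 FPKM in Con and at 8.79, 7.32 and 4.91 FPKM in GLUP. Con replicate 2 was the lowest library for ADM, and its change of -0.09 (SE 0.51) was -0.73 (SE 0.28, adjusted p = 0.217 in limma) without that library, when all 3 GLUP values lay below both Con values.

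P4HA1 and P4HA2 are subunits of the enzymes that hydroxylate collagen. P4HA1 was at 7.06, 5.52 and 5.00 FPKM in Con and at 7.30, 5.69 and 5.10 FPKM in GLUP, a change of 0.03 (SE 0.28). P4HA2 was at 4.52, 3.79 and 3.51 FPKM in Con and at 3.14, 3.85 and 3.70 FPKM in GLUP, a change of -0.11 (SE 0.25). Neither differed beyond the spread.

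The regulatory kinases and the remaining HIF targets lay below the minimum. ANKRD37, an ankyrin repeat gene, was at 0.179, 0.242 and 0.156 FPKM in Con and at 0.0313, 0.0291 and 0.0953 FPKM in GLUP. NDRG1 was at 0.118, 0.0825 and 0.0801 FPKM in Con and at 0.0476, 0 and 0.0326 FPKM in GLUP. PDK1, which restrains pyruvate dehydrogenase, was at 0.430, 0.262 and 0.181 FPKM in Con and at 0.144, 0.159 and 0.137 FPKM in GLUP. For these 3 genes, as for EGLN1, all GLUP values were below all Con values. Without a filter this held for 7 of the 37 listed genes above 0, beside 9.76% of the 31444 genes of that fit. That fit takes in genes below 1 FPKM, so the share is not a like background for the listed genes above it. Among the 7406 tested genes the share was 22.7%, and of the 23 listed genes tested it held for 3. The groups overlapped for VEGFA, the angiogenic factor, with means of 0.335 FPKM in Con and 0.691 FPKM in GLUP, for the demethylase KDM3A, for the MYC antagonist MXI1 and for PFKFB3 and PFKFB4, the kinases that raise the activator of phosphofructokinase. BNIP3, a relative of BNIP3L, was at most 0.246 FPKM, and its 44 pseudogenes together exceeded it in part of the libraries.

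Both fits are set side by side in the plot of the fold changes. The 4 enzymes with the highest changes, TPI1, ALDOA, ENO1 and GAPDH, moved from between 1.40 and 1.66 to between 0.33 and 0.50 when Con replicate 2 was left out. HIF1A and EGLN3 were at -0.60 and -0.70 without it.

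**Figure D2:**
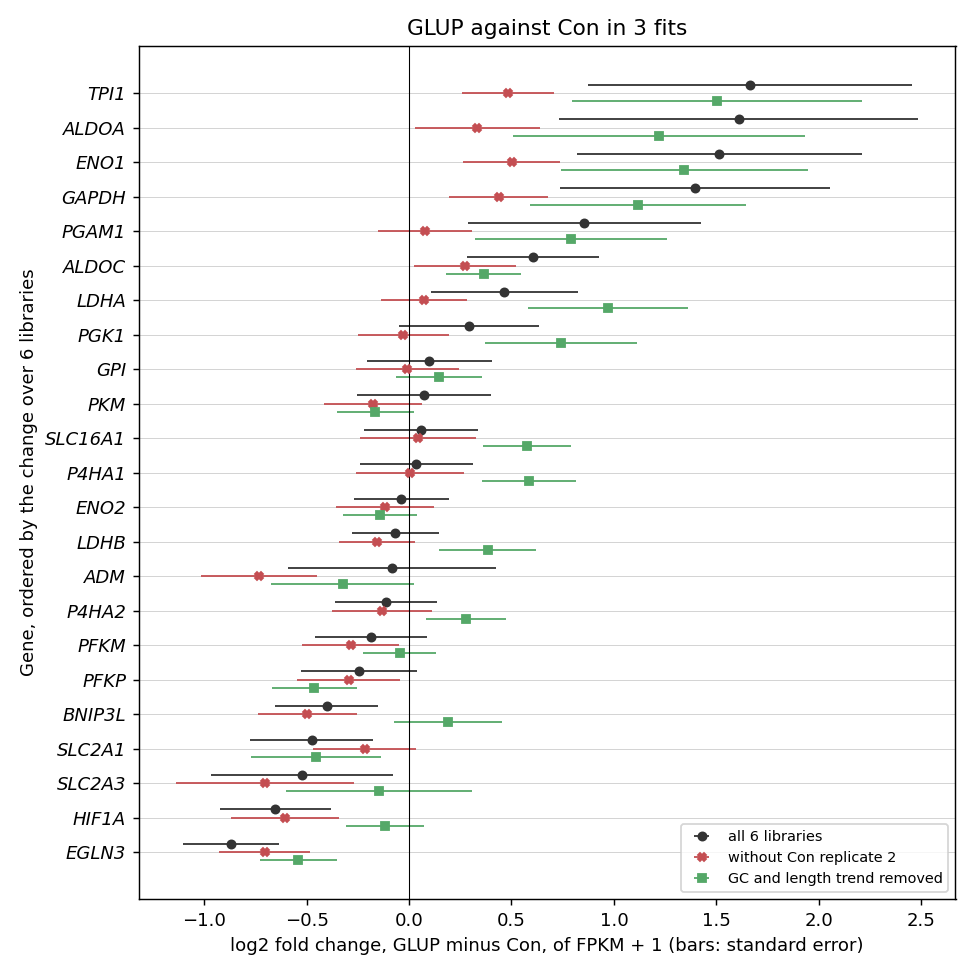
Log2 fold change (GLUP minus Con, of FPKM + 1) with its standard error for the 23 tested genes, with all 6 libraries, without Con replicate 2, and after removal of the trend in GC content and length. The highest changes, from 1.40 to 1.66, are between 0.33 and 0.50 without Con replicate 2, while EGLN3 stays at -0.54 or below in all 3 fits.

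How far the changes followed a single control library was described next. Con replicate 2 lay more than 2 log2 units below the mean of the other Con libraries for 5 of the 23 genes (ALDOA, TPI1, ENO1, GAPDH and PGAM1), beside 2.42% of all tested genes. All 5 are among the 7 listed genes at a mean of 100 FPKM or more, beside 8.29% of all 603 genes at that level. No other library stood that far below its group for any gene of the list. Con replicate 2 was below the mean of the other Con libraries for 20 of the 23 genes, beside 45.7% of all tested genes, and below both of them for 17. ALDOA held place 4 and TPI1 place 7 among all 7406 genes in the size of this gap. Over the 23 genes the Pearson correlation between the fold change and the gap was -0.92, a description only, since both are computed from the same Con libraries. The gap was larger in genes of high level, high GC content and short transcripts, with Spearman correlations over the 23 genes of -0.69, -0.50 and 0.59. Without this library the median log2 fold change of the list was -0.12, beside -0.19 for all genes, and the mean was lower in GLUP for 14 of the 23, beside 67.6% of all genes.

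**Figure D3:**
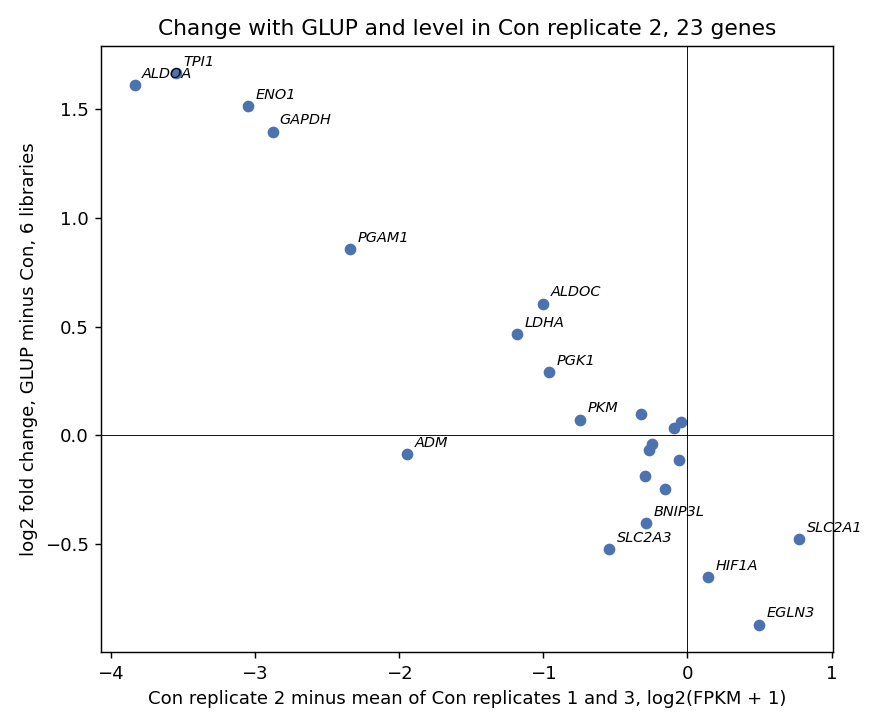
Log2 fold change between GLUP and Con over 6 libraries against the gap between Con replicate 2 and the mean of Con replicates 1 and 3, each point a gene. The genes with the highest change are those furthest below 0 on the horizontal axis, and the 2 axes share the Con libraries.

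GC content was set beside the changes because the libraries differed in it. With the tested genes cut into 10 bins of rising GC content, the median log2 fold change in bin 1 was -0.62, and 94.1% of its genes had the lower mean in GLUP. In bin 10 the median was 0.30, and 28.0% had the lower mean. The median GC content of the 23 genes was 52.7%, above the 47.2% of all tested genes. Bin 8 alone held 8 of them, among which GAPDH, TPI1 and ENO1 were far above its median of 0.12, while GPI, ENO2, SLC2A1 and ADM lay below it. LDHA and PGK1 lie in bins 3 and 4, where the medians were -0.46 and -0.41, and both were above these. With the GC and length trend removed, 7 genes lay higher in GLUP without overlap, namely ALDOC, ENO1, TPI1, LDHA, PGK1, P4HA1 and SLC16A1, beside 15.4% of all genes. Under that fit 3 genes lay lower, namely EGLN3, PFKP and PKM, beside 13.3%, and TPI1, ALDOA and GAPDH had changes of 1.50, 1.22 and 1.12. The part of base composition in the single values was not tested further.

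**Figure D4:**
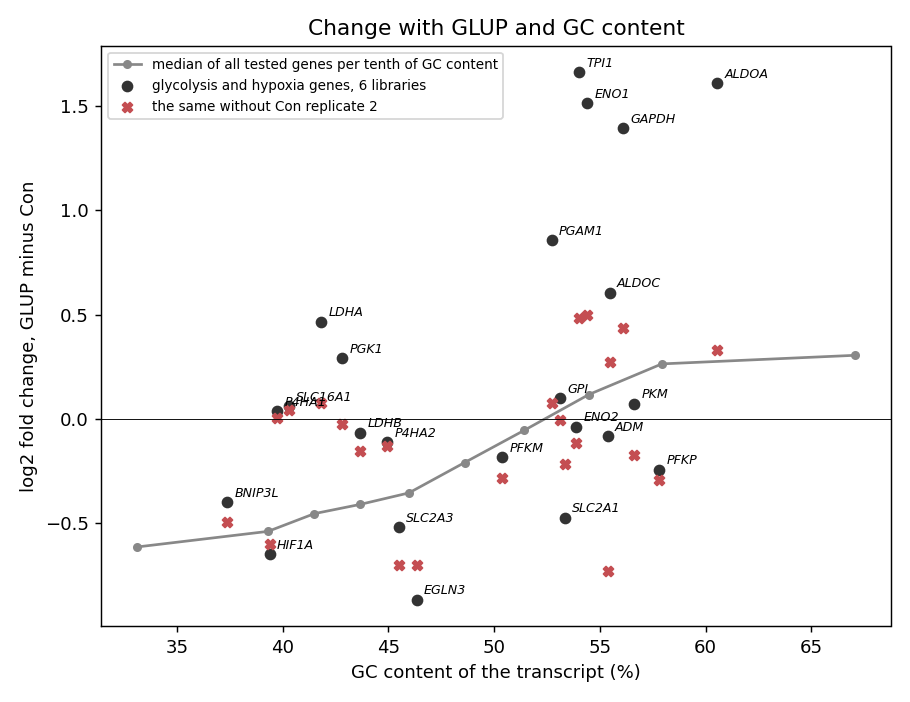
Log2 fold change of the 23 genes against the GC content of the transcript, over 6 libraries (black) and without Con replicate 2 (red crosses), with the median of all tested genes in each of 10 bins of GC content as a grey line. The line runs from -0.62 to 0.30, and GAPDH, TPI1, ENO1 and ALDOA lie more than 1 log2 unit above it only when Con replicate 2 is included.

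In a ratio between related genes the scaling of a library cancels, except where a level is near the 0.1 FPKM added to both, and 7 of 12 such pairs had both genes at a mean of 0.5 FPKM or more. The log2 ratio of LDHB to LDHA was 2.48, 3.57 and 2.84 in Con and 2.44, 2.41 and 2.43 in GLUP. Every GLUP ratio was below every Con ratio. The difference was -0.53 (exact permutation test, two-sided, p = 0.1, Benjamini-Hochberg adjusted p = 0.233 over the 7 pairs), and -0.23 without Con replicate 2. The log2 ratio of ENO2 to ENO1 was -9.63, -7.17 and -10.1 in Con and -10.4, -10.5 and -10.7 in GLUP, a difference of -1.57 (exact p = 0.1, adjusted p = 0.233), or -0.68 without Con replicate 2. PFKL to PFKP gave -4.14, -6.06 and -4.05 in Con and -2.07, -2.91 and -3.81 in GLUP, a difference of 1.82, or 1.17 without Con replicate 2. PFKL met the minimum through its GLUP values, with means of 0.422 FPKM in Con and 1.45 FPKM in GLUP. No test is therefore given for this pair. The adjusted p-values above still count it among the 7 pairs, and they would be higher without it. An exact p of 0.1 is the smallest that 3 against 3 libraries allow. The pairs ALDOC to ALDOA, PFKM to PFKP, SLC2A3 to SLC2A1 and P4HA2 to P4HA1 overlapped, with differences of -0.74, 0.06, 0.00 and -0.18 and exact p-values from 0.6 to 1.

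**Figure D5:**
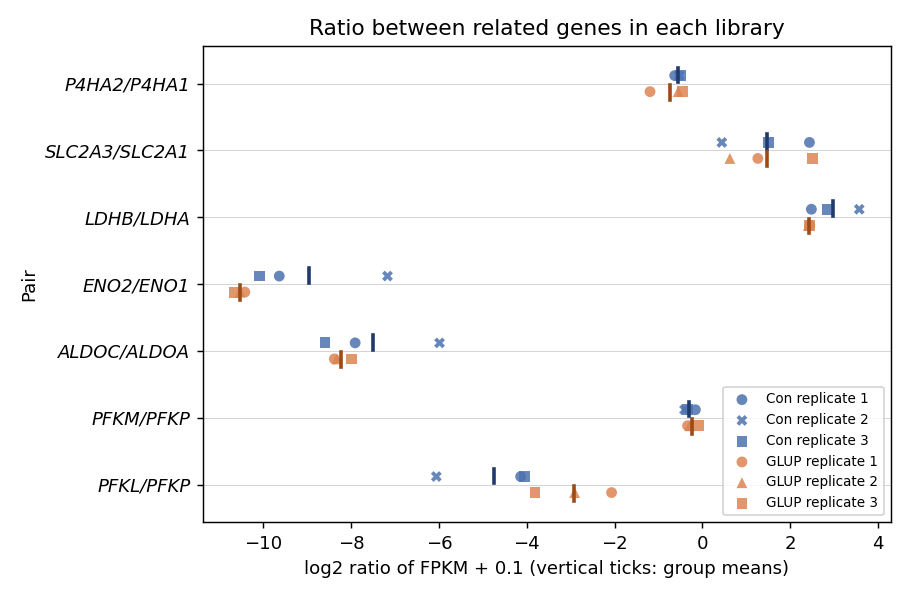
Log2 ratio of FPKM + 0.1 between related genes in each library for 7 pairs, Con in blue and GLUP in orange, with group means as vertical ticks. The LDHB to LDHA ratio is between 2.41 and 2.44 in the 3 GLUP libraries and spreads from 2.48 to 3.57 in Con.

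A wider set of 70 genes of glucose metabolism and the HIF pathway was counted in the same fit, of which 36 were tested. None passed an adjusted p of 0.05 in limma. At an unadjusted p under 0.05, 1 gene was higher and 5 were lower in GLUP, beside 4.46% and 17.2% of all genes. The median log2 fold change of the 36 genes was -0.23, as for all genes. By role, the medians were 0.07 for 12 side and branch enzymes of glucose metabolism, -0.49 for 6 genes of pyruvate entry into mitochondria, 0.15 for 3 regulators of HIF and -0.13 for 15 further hypoxia-induced genes.

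All 6 tested genes of pyruvate entry, the pyruvate carriers MPC1 and MPC2 and the pyruvate dehydrogenase subunits PDHA1, PDHB, PDHX and DLD, had a lower mean in GLUP, beside 65.5% of all genes. DLD, the subunit that pyruvate dehydrogenase shares with related complexes, was at 13.7, 15.8 and 7.90 FPKM in Con and at 4.67, 5.61 and 5.27 FPKM in GLUP. Its groups did not overlap, and its log2 fold change was -1.08 (SE 0.31, adjusted p = 0.194 in limma). With the GC and length trend removed the change of DLD was -0.50, and the median of the 6 genes was -0.01.

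ANGPTL4, a secreted inhibitor of lipoprotein lipase that HIF induces, had the smallest p among the wider set in the direction of GLUP. It was at 3.10, 1.09 and 4.09 FPKM in Con and at 10.2, 7.15 and 7.09 FPKM in GLUP, with no overlap. Its log2 fold change was 1.36 (SE 0.36, adjusted p = 0.194 in limma), and it was 0.99 without Con replicate 2. Removal of the trend in GC content and length gave 0.98, and leaving out Con replicate 3 gave an adjusted p of 0.0314 in limma. In that fit, where 18.5% of all genes passed, DLD (0.0285), BPGM (0.0303), RPE (0.0359), PDHB (0.0366) and TMEM45A (0.0445) passed as well. Its Con and GLUP libraries had GC correlations of opposite sign, and the part of this in these calls was not tested. PGLS, of the pentose phosphate pathway, and DDIT4, an inhibitor of mTOR signalling, followed with changes of 0.93 (SE 0.49) and 0.83 (SE 0.47), which were 0.34 and 0.33 without Con replicate 2.

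In the other direction, TMEM45A, a membrane protein induced in hypoxia, was at 23.5, 16.6 and 15.9 FPKM in Con and at 10.3, 8.95 and 6.61 FPKM in GLUP. Its change was -1.03 (SE 0.30, adjusted p = 0.194 in limma). BPGM, which makes bisphosphoglycerate from a glycolytic intermediate, was at 7.48, 6.60 and 3.98 FPKM in Con and at 2.06, 3.18 and 2.48 FPKM in GLUP, a change of -0.95 (SE 0.30, adjusted p = 0.194 in limma). Neither overlapped between the groups. After removal of the trend the changes were -0.50 and -0.47.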

How the data were processed

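RNA of HGC-27 cells was sequenced in 3 Con and 3 GLUP samples, grouped by their titles. FPKM values per gene were deposited by the authors in 1 table, in which fragments are scaled to gene length and to the mapped total. The submitters' processing notes name HISAT2, Cufflinks, RSEM and GRCh38.p10 without roles or versions, whereas 53057 of 62492 identifiers carry the suffix of a GENCODE annotation lifted to GRCh37. Which build underlies the values is therefore unsettled. Gene coordinates, lengths and GC contents were those of the lifted GENCODE release 44, and promoter sequences from RefSeq (GRCh38.p14). Of the tested genes, 98.3% had a GC content. Strand-specific counting is not stated, so overlapping genes are uncertain. FPKM hold no read counts, and tests for counts were not used.

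Values were transformed to log2(FPKM + 1). Genes averaging 1 FPKM or more, 7406 in number, were fitted with limma 3.58.1 (lmFit, eBayes with trend, two-sided) in R 4.3.3, with Benjamini-Hochberg adjustment over all of them. Genes below the minimum took values from the same fit on the 31444 genes above 0. Groups were said not to overlap when all 3 GLUP values lay on the same side of all 3 Con values. Log2 ratios used a pseudocount of 0.1 FPKM and exact permutation tests over samples. Alternatives were a pseudocount of 0.1, no filter, a minimum of 5 FPKM, scaling by the trimmed mean of log ratios (trimming 30% of genes on the ratio and 5% on the level from each end), quantile normalization, eBayes without trend, the replicate number as a block, removal from each library of a loess trend (span 0.5) with GC content and length, the same with the block, and leaving out each library. The fit was tested on simulated data with the spread of the GLUP libraries alone. That test therefore does not cover the wider spread of Con or a library such as Con replicate 2.

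The genes, the other pathway lists and the tests were chosen with earlier results of these data known, so none is independent evidence of a direction. Genes at 1 FPKM or more were described with all 6 values, and those below more shortly. From the wider set, genes past the threshold and the 3 with the smallest p in each direction were named. The 6 genes of pyruvate entry were named as a group after their values were seen. Libraries were compared pairwise, and since 0 values above 0 were equal between any 2 of them in the tested genes, all 6 were kept as separate replicates. Tables and figures were made with Python 3.11.15, pandas 2.3.3, numpy 2.4.6 and matplotlib 3.10.9.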

Additional observations from a re-analysis of the deposited data

How the results depend on the processing

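Of 454 values of single genes under the alternatives, 415 kept their direction and their side of the threshold, 37 changed direction (in 14 of 37 genes) and 2 newly passed an adjusted p of 0.05, namely HIF1A (-0.81) and EGLN3 (-1.02) without Con replicate 3 in limma. EGLN3 met the minimum only through Con, so its passing is a description and not support. The Con and GLUP libraries of that fit had GC correlations of opposite sign, and the part of this in the calls was not tested. With the trimmed mean of log ratios the changes reversed to 0.17 for ADM, 0.15 for ENO2, 0.23 for LDHB, 0.13 for P4HA2, 0.083 for PFKM and 0.029 for PFKP. With quantile normalization they reversed to 0.17 for ADM, 0.12 for ENO2, 0.14 for P4HA2, 0.10 for PFKM and 0.036 for PFKP. After removal of the trend in GC content and length, with or without the replicate block, they reversed to 0.19 for BNIP3L, 0.38 for LDHB, 0.28 for P4HA2 and -0.16 for PKM. The cause of these reversals was not tested.

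Leaving out 1 library gave changes from -0.043 to 0.19 for HK1, from -0.056 to 0.27 for GPI, from -0.027 to 0.50 for PGK1, from -0.15 to 0.040 for ENO2, from -0.17 to 0.22 for PKM, from -0.11 to 0.24 for SLC16A1, from -0.12 to 0.034 for BNIP3, from -0.73 to 0.33 for ADM and from -0.091 to 0.16 for P4HA1. The count of listed genes with an adjusted p under 0.05 was 0 in every other fit and ran from 0 to 2 over the fits that left out a library, with 2 only without Con replicate 3. The count with an unadjusted p under 0.05 and a higher mean, 0 over 6 libraries, was 1 with the trimmed mean (10.2% of all genes) and with quantile normalization (9.21%), 3 after removal of the trend (9.67%) and 0 to 5 with a library left out, the 5 being without Con replicate 3 (8.86%). The corresponding count of lower genes, 2 as reported, was 5 in the unfiltered fit (5.90% of its genes, beside 17.2% of the tested genes). It was 0 at the minimum of 5 FPKM (18.8%). That count was 1 with the trimmed mean (8.83%), with quantile normalization (9.95%) and with the trend removed (8.97%). With a library left out it was 1 to 3, with 1 without Con replicate 1 (8.64%), GLUP replicate 1 (8.91%) or GLUP replicate 2 (8.30%). The 3 were without Con replicate 2 (14.8%). Genes higher without overlap, 3 as reported, numbered 6 with the trimmed mean (14.3%) and 7 with the trend removed, with or without the replicate block (15.4%). With quantile normalization they numbered 4 (13%), and ENO1 was not among them. They numbered 3 to 5 with a library left out, with 5 without Con replicate 3 (13.7%) or GLUP replicate 3 (12.8%). Lower ones numbered 7 without a filter (9.76% of that fit, beside 22.7% of the tested genes). They numbered 0 with the minimum of 5 FPKM (25.5%), where fewer genes were tested. With the trimmed mean (14.4%) and with quantile normalization (16.1%) they numbered 2, HIF1A and EGLN3, and BNIP3L overlapped. With the trend removed they numbered 3 (13.3%), and both HIF1A and BNIP3L overlapped. With a library left out the lower ones numbered 3 to 7, with 7 without Con replicate 2 (28.7%) and 5 without GLUP replicate 1 (28.8%). The median change, 0.03 as reported, was 0.29 with the trimmed mean, 0.30 with quantile normalization, 0.28 after removal of the trend, where that of all genes was 0.02, -0.04 without a filter, 0.10 at the minimum of 5 FPKM, and -0.12 to 0.16 with a library left out.

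For the wider set of 70 genes the adjusted count was 0, and 0 to 6 with a library left out, the highest without Con replicate 3 (18.5% of all genes). Its unadjusted count of higher genes, 1 as reported, was 2 without a filter (2.18% of the genes of that fit). The count was 3 with the trimmed mean (10.2%) and with quantile normalization (9.21%), and 2 with the trend removed (9.67%). With a library left out it was 1 to 2 (2.16% to 8.86% of all genes). Lower genes of the wider set, 5 as reported, ran from 3 to 9 with a library left out. The 3 were without GLUP replicate 2 (8.30% of all genes) and the 9 without Con replicate 3 (31.5%). The samples were not paired by their replicate numbers, since the correlations of the deviations of same-numbered libraries were 0.13, -0.01 and -0.17. The replicate block gave 4 listed genes higher and 1 lower at an unadjusted p under 0.05, beside 4.79% and 15.6% of all tested genes. With the trend removed as well it gave 6 higher and 1 lower, beside 9.15% and 8.30%. In the wider set that last fit gave 4 higher and 1 lower. None of the 56 values of the ratios moved by 1 SD between libraries or more. That SD takes in Con replicate 2, so this does not show that the ratios are stable. Without Con replicate 2 the difference went from -1.57 to -0.68 for ENO2 to ENO1 and from -0.53 to -0.23 for LDHB to LDHA. Depth is unknown, so what it limits in the genes below 1 FPKM could not be stated.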
